A study of Macaca mulatta with 7 samples.

Results

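The genes described here are 33 genes that work in spermatogonia or in meiotic germ cells, the stages that come before the spermatid and the sperm. They were picked by name, as known genes of those stages, and are 33 of the 18282 genes in the gene table of a rhesus macaque sperm RNA series. Of the 33 genes, 11 are spermatogonial and 22 are meiotic. The series holds total RNA sequencing of sperm cells purified on a PureSperm 40/80 density gradient, with TRIzol extraction and 1 library per animal. The groups are 4 Control animals and 3 Maltreated animals, aged 5.72 to 5.92 years and 5.67 to 5.78 years. The labels do not say what the maltreatment was, and give no other difference between the groups. The question put to these genes was which RNAs of earlier stages are still found in sperm, and which of them as nearly complete transcripts.

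Spermatogonia are the mitotic stem and progenitor cells of the testis. Their undifferentiated state is marked by transcription factors such as ZBTB16 and SALL4, by the GDNF co-receptor GFRA1 and by the RNA-binding proteins NANOS2 and NANOS3. Retinoic acid signalling induces STRA8 and sends the cells into meiosis, where SPO11 cuts the DNA, DMC1 carries out strand exchange, the synaptonemal complex holds homologues together, and MutS and MutL proteins mark crossovers. Sperm are thought to transcribe very little, so the RNA they carry is largely a remainder from earlier stages, often in fragments.

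Sense counts per library ran from 5316383 (Control 4) to 30715268 (Maltreated 1). All 13 sperm and spermatid marker genes had counts in every library, with a summed level of 45950 to 98585 counts per 1000000 sense counts (CPM). A list of 13 leukocyte genes summed to 8.23 to 57.5 CPM in 5 libraries, to 805 CPM in Control 4 and to 1008 CPM in Maltreated 3. Of 14 testis somatic genes 13 were measured, and they summed to 26.4 to 58.8 CPM in the same 5 libraries, to 170 CPM in Control 4 and to 288 CPM in Maltreated 3, where VIM alone gave 265 CPM. The Leydig cell gene INSL3 was at 0 in all 7 libraries, but STAR and CYP17A1, which Leydig cells also express, were not. STAR had 1.02, 1.27, 1.17 and 0 CPM in Control 1 to 4 and 0.39, 0 and 0.47 CPM in Maltreated 1 to 3. CYP17A1 had 0.30 CPM in Control 1, 0.065 CPM in Maltreated 1 and 0 CPM elsewhere. Epithelial and accessory gland genes summed to 6.74 to 31.8 CPM, apart from 297 CPM in Control 2. The part of these other cells in the results below was not tested.

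Meiotic RNAs were abundant in sperm and spermatogonial RNAs were scarce. Levels are given as sense CPM per kb of annotated exon, called the level per kb below, to take gene length into account. All exon bases enter, so a long last exon with few counts lowers the level. Over 5333 genes with enough exons and counts, the last exon held a median of 1.53% of counts and 37.4% of bases. The part of last exons in the ratio below was not tested. The median meiotic gene had a mean level of 11.7 per kb over the 7 libraries, at a median percentile of 81.2 among all 18282 genes. The median spermatogonial gene had a mean level of 0.46 per kb, at a median percentile of 33.5. The median over all genes was 1.25 per kb. The ratio of the meiotic to the spermatogonial median was 25.3. It was 12.9 when means over the genes replaced medians, 37.3 without DAZL, and 54.7 when only counts above the lower neighbouring exon were used.

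The order held in each library. The median meiotic gene stood at 11.6, 9.75, 11.5 and 6.80 per kb in Control 1 to 4 and at 8.60, 8.94 and 7.75 per kb in Maltreated 1 to 3. The median spermatogonial gene stood at 0.61, 0.075, 0.13 and 0.12 per kb in Control 1 to 4 and at 0.35, 0 and 0.16 per kb in Maltreated 1 to 3. Every library therefore had its meiotic median above its spermatogonial median. The genes are not replicates of a condition, so no test was made of this contrast. In bulk RNA, fewer cells that carry an RNA and less of that RNA per cell cannot be told apart.

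The presence of counts followed the same order. Of the 22 meiotic genes, 18 had a count in all 7 libraries, against 3 of the 11 spermatogonial genes and 45.9% of all genes. None of the 33 genes was without a count in every library. Together the 33 genes took 1170 to 1524 CPM of a library, of which the 11 spermatogonial genes took 32.4 to 100.1 CPM. DAZL alone supplied 25.2 to 45.9 CPM of that sum.

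**Figure D1:**
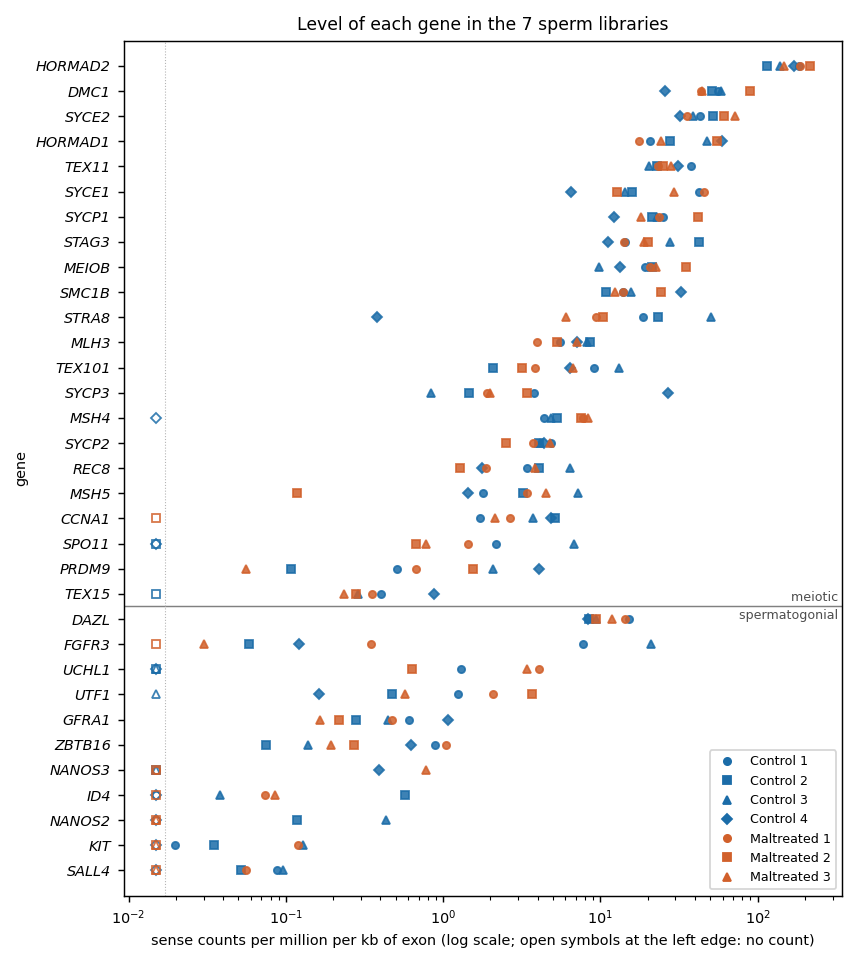
Level of the 33 genes in the 7 sperm libraries, as sense CPM per kb of exon on a log axis, with 1 symbol per library and open symbols at the left edge for no count. The meiotic genes above the line lie mostly to the right of the spermatogonial genes below it, and HORMAD2 leads with a mean of 165 per kb.

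DAZL, an RNA-binding protein made in germ cells from the gonocyte to meiosis, was the spermatogonial gene with the highest level. It had 452, 142, 170 and 134 counts across Control 1 to 4, against 1346, 175 and 386 counts across Maltreated 1 to 3. The levels were 15.1, 8.45, 9.32 and 8.29 per kb in the Control libraries and 14.4, 9.35 and 11.9 per kb in the Maltreated libraries. The ranges of the groups overlapped, and DAZL stood at the 82.5 percentile of all genes. Exon 7 of 11 had the most counts in 5 libraries, while Control 4 was highest on exon 2, with 40 counts, and Maltreated 2 on exons 4 and 5, with 50 and 51 counts. Counts were low in the last exon, which holds 63.2% of its exon bases and had 1.06% of its counts on average. Its covered share, the percentage of annotated exon bases that the authors' table lists as covered in the sense direction, ran from 10.6% to 47.7%. No source used here states how a base was counted as covered, so a covered share cannot be read as a share of bases sequenced.

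GFRA1 and ZBTB16 were the other spermatogonial genes with a count in all 7 libraries, both at low levels. GFRA1, the co-receptor through which GDNF maintains spermatogonial stem cells, had 58, 15, 26 and 55 counts across Control 1 to 4, against 141, 13 and 17 across Maltreated 1 to 3. ZBTB16, a transcription factor needed for stem cell maintenance, had 21, 1, 2 and 8 counts across Control 1 to 4, against 77, 4 and 5 across Maltreated 1 to 3. The 55 GFRA1 counts of Control 4 all lay on exon 3 and covered 0.0104% of its 9641 exon bases, whereas the 13 counts of Maltreated 2 are listed with 88.5% covered. The mean level was 0.47 per kb for GFRA1 and 0.46 per kb for ZBTB16. Both genes rest on few counts in most libraries, and differences between these were not detectable at this depth.

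FGFR3, a receptor tyrosine kinase of undifferentiated spermatogonia that other tissues also express, was uneven. It had 238, 1, 392 and 2 counts across Control 1 to 4, against 33, 0 and 1 across Maltreated 1 to 3. Control 1 and Control 3 stood apart from the other 5 libraries, at 7.80 and 21.1 per kb against at most 0.35 per kb. In Control 1 each of the 17 exons had exactly 14 counts, and in Control 3 each had 23 or 24. FGFR3 lies at chr4:1905714-1919292 on the plus strand in the files' coordinates, a span of 13.6 kb.

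UCHL1 and UTF1 had mean levels of 1.34 and 1.17 per kb, close to the 1.25 per kb of the median gene, but with counts concentrated in a few libraries. UCHL1, a deubiquitinase that neurons also make, had 13 counts in Control 1, 127 in Maltreated 1, 4 in Maltreated 2 and 37 in Maltreated 3, and none in the other 3 libraries. UTF1, a chromatin-bound pluripotency factor, had 14, 3, 0 and 1 counts across Control 1 to 4, against 73, 26 and 7 across Maltreated 1 to 3. The Control and Maltreated ranges of both genes overlapped. Lower were ID4 and KIT. ID4, an inhibitor of helix-loop-helix factors, had at most 14 counts in any library, and KIT, the receptor that marks differentiating spermatogonia, had at most 19.

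SALL4, NANOS3 and NANOS2 were lower still, with 12, 10 and 5 counts over all 7 libraries. SALL4 had 101 antisense counts, of which 100 were in Control 4, so most of what the files hold at this gene is on the opposite strand. NANOS2, which represses differentiation of stem cells, had 1 count in Control 2 and 4 in Control 3. For NANOS2 in Control 4, a count of 0 allows a level of up to 0.366 per kb, taken as 3 counts. Counting floors of this kind cover counting error only.

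Meiotic entry was represented by STRA8, which had 180, 126, 297 and 2 counts across Control 1 to 4, against 285, 63 and 64 across Maltreated 1 to 3. Its level was 18.6, 23.2, 50.3 and 0.38 per kb in the Control libraries and 9.43, 10.4 and 6.08 per kb in the Maltreated libraries. Control 4 was far below the other 6 libraries, and the Control range enclosed the Maltreated range.

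The axis proteins HORMAD1 and HORMAD2, which sit on unsynapsed chromosome axes, were among the highest. HORMAD2 had the highest level of the 33 genes in all 7 libraries, at 185, 115, 139 and 170 per kb across Control 1 to 4, against 187, 214 and 146.4 per kb across Maltreated 1 to 3. It stood at the 98.6 percentile of all genes, and its coefficient of variation over the 7 libraries was 20.4%. HORMAD1 had 20.8, 27.7, 47.4 and 59.5 per kb in Control 1 to 4 and 17.5, 55.2 and 24.3 per kb in Maltreated 1 to 3. The SD of HORMAD1 was 17.8 per kb within the Control group and 20.1 per kb within the Maltreated group, and the groups overlapped.

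The 5 synaptonemal complex genes all had counts in every library, with a joint 130 to 234 CPM. SYCE2, a central element protein, averaged 47.8 ± 14.4 per kb (SD, n = 7), SYCE1, another, 23.9 ± 15.5 per kb, and SYCP1, the transverse filament, 23.5 ± 9.06 per kb. SYCE1 had 42.5, 15.8, 14.4 and 6.51 per kb in the Control libraries and 45.8, 12.8 and 29.6 per kb in the Maltreated libraries, so that each group held both high and low values. SYCP2 and SYCP3, the lateral element proteins, were lower, at 4.07 ± 0.80 and 5.76 ± 9.38 per kb. The SYCP3 mean rests on Control 4, one of the libraries with leukocyte RNA, which had 26.9 per kb against 0.84 to 3.78 per kb in the other 6 libraries. The SYCP3 exons overlap those of CHPT1 on the other strand, and 38.8% of the counts on its exons were antisense. SYCP2 had 1132 antisense counts beside 1590 sense counts, and 686 of the antisense counts were in Control 4.

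Among the meiotic cohesins, STAG3 and SMC1B were well represented and REC8 less so. STAG3 averaged 21.2 ± 10.6 per kb, SMC1B 17.6 ± 7.77 per kb and REC8, the kleisin that separase cleaves, 3.23 ± 1.77 per kb (SD, n = 7). STAG3 had 14.4, 42.1, 27.6 and 11.2 per kb in Control 1 to 4 and 14.2, 20.2 and 18.9 per kb in Maltreated 1 to 3. SMC1B was highest in Control 4, at 32.3 per kb, and between 10.9 and 24.2 per kb elsewhere.

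The break and strand exchange genes covered the widest range of levels. DMC1, the meiotic recombinase, had 55.7, 51.3, 58.7 and 25.7 per kb in Control 1 to 4 and 43.4, 89.2 and 44.4 per kb in Maltreated 1 to 3. TEX11, an X-linked recombination gene, averaged 26.9 ± 5.94 per kb and MEIOB, a single-strand DNA-binding protein, 20.3 ± 8.002 per kb (SD, n = 7). SPO11, which makes the breaks, averaged only 1.70 ± 2.39 per kb and had no count in Control 2 and Control 4. PRDM9, the methyltransferase that places the breaks, averaged 1.29 ± 1.43 per kb, and 52.7% of the counts on its exons were antisense. TEX15, at 0.35 ± 0.26 per kb, was the lowest meiotic gene. DMC1, TEX11 and MEIOB thus lay above the ranges of SPO11, PRDM9 and TEX15 in every library.

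The crossover genes were intermediate. MLH3, a MutL protein, averaged 6.56 ± 1.68 per kb, MSH4 5.46 ± 2.86 per kb and MSH5, its MutS partner, 3.10 ± 2.32 per kb (SD, n = 7). MSH4 had 141, 96, 95 and 0 counts across Control 1 to 4, against 777, 150 and 291 across Maltreated 1 to 3, and the 0 of Control 4 allows a level of up to 0.173 per kb. The germ cell cyclin CCNA1 averaged 2.89 ± 1.83 per kb with no count in Maltreated 2, and the germ cell surface protein TEX101 averaged 6.35 ± 3.85 per kb.

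Most of these RNAs were on the sense strand. The antisense share of a gene's counts, pooled over the 7 libraries, had a median of 4.15% over the 33 genes, against 9.76% over all genes. It was 0.43% for HORMAD2, 0.40% for HORMAD1, 0.78% for SYCP1 and 1.17% for STRA8, while SALL4, PRDM9, SYCP2 and SYCP3 were the 4 genes with the highest shares. Whether antisense counts at these 4 genes come from other transcripts was not tested.

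In order of mean level, HORMAD2 at 165 ± 33.7 per kb was followed by DMC1 at 52.7 ± 19.4, SYCE2 at 47.8 ± 14.4, HORMAD1 at 36.1 ± 17.5 and TEX11 at 26.9 ± 5.94 per kb (SD, n = 7). Only HORMAD2 was separated from the next gene by more than their spread. From DMC1 down, each gene and its neighbour in the order had overlapping values over the 7 libraries.

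The covered share separates a whole transcript from a fragment only together with the counts behind it. A gene is called near-full here when at least 90% of its annotated exon bases were covered in the sense direction. None of the 33 genes was near-full in all 7 libraries, against 249 of 18282 genes (1.36%). Near-full cover in at least 4 libraries was found for 4 of the 33 genes, STRA8 in 6 libraries, STAG3 in 5, and SYCE2 and DMC1 in 4 each, against 9.67% of all genes. These 4 are 12.1% of the 33 genes. All 4 are meiotic, which is 18.2% of the 22 meiotic genes, and most of the 33 genes are meiotic. Just outside the limit lay HORMAD1 in Maltreated 3 at 89.6% and GFRA1 in Maltreated 2 at 88.5%, and just inside it SMC1B in Maltreated 1 at 96.2% and SYCE2 in Control 1 at 96.9%. With the limit kept at 4 libraries, the number was 2 without Control 1 and 2 without Maltreated 1. SYCE2 and DMC1 had to drop out there, since both of these libraries are among their 4. Without Control 4 and Maltreated 3 together, STRA8 and STAG3 were near-full in all of the 5 libraries left.

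The number of near-full genes was highest in the library with the most counts. It was 13 in Maltreated 1 with 30715268 sense counts, 9 in Control 1, 7 in Maltreated 3, 6 in Control 3, 4 in Control 2, and 3 each in Control 4 and Maltreated 2. The share of all genes that were near-full was 41.3% in Maltreated 1 and 8.99% to 21.4% in the other 6 libraries. The 33 genes were thus near-full at 39.4% in Maltreated 1 and 9.09% to 27.3% elsewhere. In at least 1 library, 14 of the 22 meiotic and 5 of the 11 spermatogonial genes were near-full, against 59.3% of all genes.

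**Figure D2:**
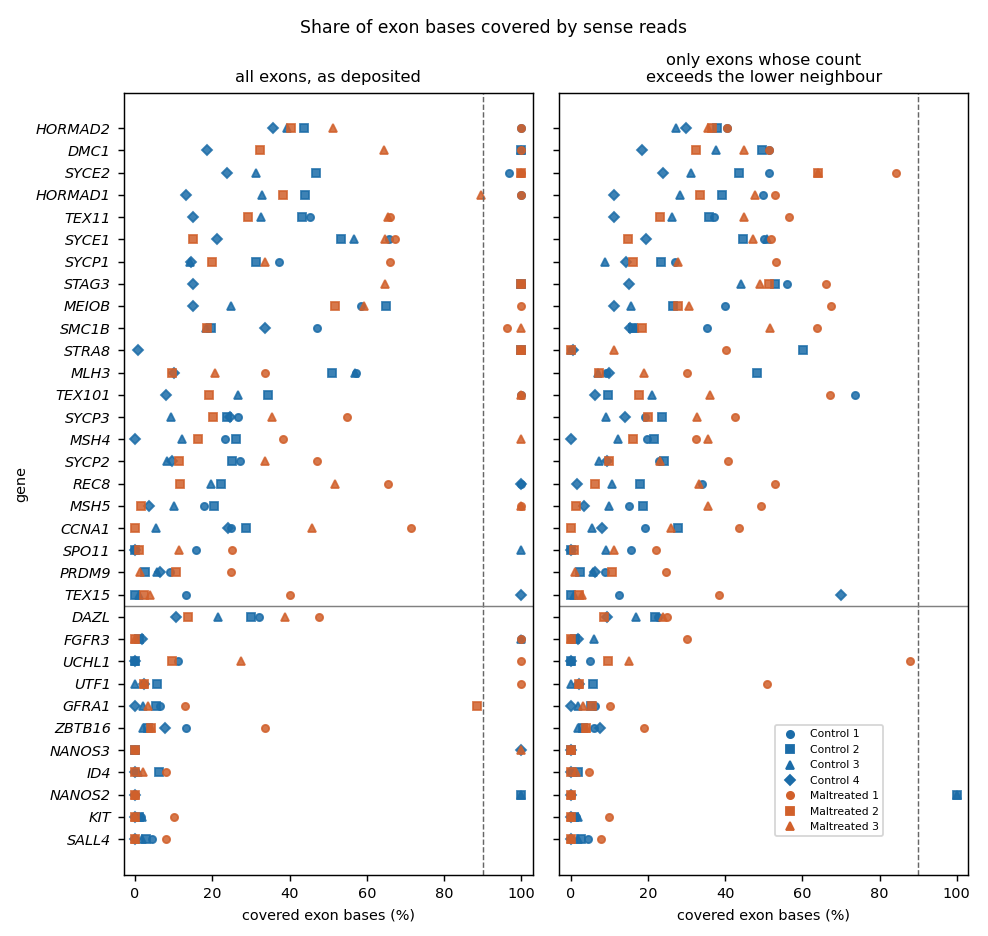
Covered percentage of the exon bases of the 33 genes in each library, from all exons as deposited (left) and from exons whose count exceeds that of the lower neighbour only (right), with the 90% line dashed. The points at 100% on the left move to at most 87.8% on the right, apart from NANOS2, which has 1 exon.

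Counts per exon showed what lay behind full cover. STRA8 lies at chr7:161112250-161138522 on the plus strand, with 9 exons and 984 exon bases over 26.3 kb. In Control 1 each of its 9 exons had 20 counts, in Control 3 each had 33, and in Maltreated 2 each had 7. Control 2 had 11 to 16 counts per exon, Maltreated 1 had 30 to 33, and Maltreated 3 had 7 or 8. Control 4 had 2 counts, both on exon 5, which is 26 bases long. The source of these equal counts was not tested. Of all STRA8 counts, 75.9% lay on exons with exactly the count of their neighbours, where the median over the 33 genes was 0.39% and over all genes 0.41%.

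FGFR3 and NANOS3 had the same form. Of the FGFR3 counts, 84.9% lay on exons with exactly the count of their neighbours, and of the NANOS3 counts 100%. The 2 exons of NANOS3 had 1 count each in Control 4 and 4 each in Maltreated 3, and both libraries list the gene as covered at 100%. NANOS2, a single exon of 1541 bases, was listed as covered in full from 1 count in Control 2. TEX15 was covered at 100% in Control 4 from 48 counts, of which 33 were on exon 1, which is 7282 bases long. Over all genes, 9.53% to 14.5% of the exons with exactly 1 count in a library had more than 200 covered bases, and the longest had 5071 to 12072. In these cases a covered share of 100% rested on few counts.

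STAG3 joined both forms. It lies at chr7:125398843-125438055 on the plus strand and has 34 exons. Its exons 2 to 4 and 30 to 32 carried most counts, for example 135 on exon 3 and 119 on exon 30 in Control 2. Between them, Control 2 had 10 counts on each of exons 10 to 18, and Control 3 had 2 on each of exons 8 to 17. In Control 4 the middle of the gene was empty and the covered share was 15.03%.

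DMC1, at chr15:80416548-80468788 on the minus strand, had most of its counts on exons 10 to 13 of 14, with 67 more on exon 2 in Control 4. Exon 11 had 299, 172, 296 and 43 counts across Control 1 to 4, against 865, 352 and 324 across Maltreated 1 to 3. The last exon, 692 bases long, had 20, 1, 2 and 0 counts across Control 1 to 4, against 8, 0 and 4 across Maltreated 1 to 3. Full cover in Control 2 and Control 3 thus rested on 1 or 2 counts for that exon, as it did for exon 1.

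Across the 45 cases of a gene near-full in a library, among 231 pairs of gene and library, 18 had an exon with at most 2 counts. When an exon was kept only if its count exceeded that of its lower neighbour, no gene with several exons reached 90% in any library. The highest value was 87.8%, for UCHL1 in Maltreated 1, and the median over the 45 cases was 49.9%. By construction the exon with the lowest count of a gene is never kept, so this measure is a lower one and is not an estimate of transcript length. Among all genes, 8.87% reached 90% by it in at least 1 library, and among the 33 genes only NANOS2 did.

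UCHL1 in Maltreated 1 was the spermatogonial gene with the most varied counts along a fully covered transcript. Its 9 exons had from 2 to 39 counts there, with 127 in all. In the other 6 libraries its cover was 0% to 27.3%. SYCE2 in Maltreated 1 was the nearest meiotic case, with 84.3% of its bases on kept exons and 1015 counts.

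**Figure D3:**
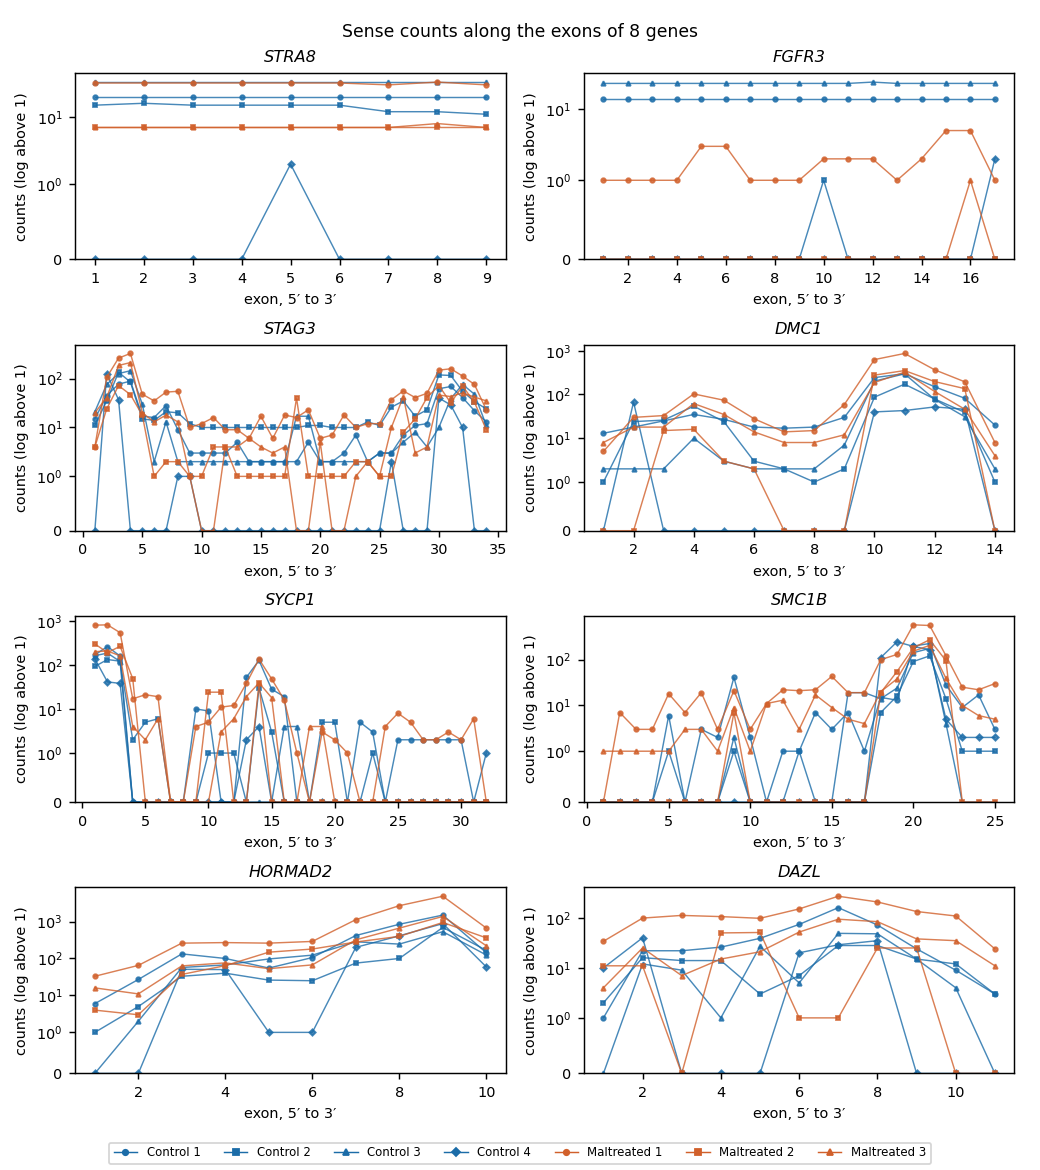
Sense counts on each exon of 8 genes, numbered from the 5′ end, with 1 line per library and a vertical axis that is linear from 0 to 1 and logarithmic above. STRA8 and FGFR3 show flat lines, such as 20 and 14 counts on every exon in Control 1, while DMC1, SYCP1, SMC1B and HORMAD2 show peaks on the same few exons in most libraries. In Control 4, DMC1 was highest on exon 2, with 67 counts, and SMC1B on exon 19, with 245.

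In 5 meiotic genes the exon with the most counts was the same in all 7 libraries. SYCE2, at chr19:12620221-12640259 on the minus strand, had 50.4% to 84.7% of its counts on exon 3 of 6, and exons 2 and 3 together held 94.2% on average. HORMAD2, at chr15:71871078-71950523 on the plus strand, had 34.7% to 59.5% of its counts on exon 9 of 10, although its last exon holds 55.7% of its bases. TEX11 had exon 7 of 29 in front, with 19.9% to 45.2%, MLH3 exon 5 of 13, with 28.5% to 53.4%, and HORMAD1 exon 12 of 15, with 19.4% to 32.4%. The leading exon was less constant in other genes of high level. STAG3 and SYCP1 had their overall leading exon in front in 2 libraries and MEIOB in 3. SYCE1 had 34 to 97 counts on each of exons 1 to 11 in Control 1, but none on exons 1 to 8 in Control 4.

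SYCP1 and SMC1B showed blocks at opposite ends. SYCP1, at chr1:115507887-115619311 on the plus strand, had counts on exons 1 to 3 of 32 in every library, and exon 1 had 168, 92, 161 and 137 counts across Control 1 to 4, against 794, 298 and 199 across Maltreated 1 to 3. Its last exon, 491 bases long, had 1 count in all 7 libraries together. SMC1B, at chr15:87356075-87419643 on the minus strand, had its counts on exons 18 to 22 of 25, and exon 21 had 225, 121, 176 and 165 counts across Control 1 to 4, against 558, 272 and 205 across Maltreated 1 to 3. The 5′ part of SMC1B was sparse in 5 libraries, with covered shares of 18.3% to 47.1%.

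A high share of counts before the middle of the exon bases was common to the whole table and not a trait of these genes. Of the 33 genes, 16 had at least 5 exons and at least 10 counts in each library. In these, the 5′ part of the gene, up to the middle of the annotated exon bases, held a median of 84.4% of counts, against 87.6% for 5333 genes chosen the same way. The last exon held a median of 0.64% of counts and 31.1% of bases, against 1.53% and 37.4% in those 5333 genes. The 5′ part held 98.9% in SYCP1 and in DAZL and 96.4% in SYCE2, but 34.2% in HORMAD1, 24.7% in REC8 and 3.79% in SMC1B. A long last exon makes this part reach far along a gene. In DAZL, GFRA1 and HORMAD2, whose last exons hold 63.2%, 79.9% and 55.7% of bases, it takes in every other exon. A high share there is thus no sign of a block at the 5′ end. DAZL had its overall leading exon at 7 of 11 and HORMAD2 at 9 of 10.

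The level and the covered share of the 33 genes moved together, with a Spearman rho of 0.83 and a Pearson r of 0.49 between the means over libraries. This is a description across 33 genes in shared libraries, since both values rise with the number of reads.

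Maltreated and Control animals were compared with edgeR's quasi-likelihood test on sense counts over all genes. It tested 10719 genes, among them 24 of the 33, all 22 meiotic genes with DAZL and GFRA1. The other 9 spermatogonial genes were below the count filter. None of the 24 genes passed an adjusted p of 0.05, where the share of all tested genes that passed was 0%, and none had an unadjusted p under 0.05, against 1.78% of all tested genes. DESeq2 gave 0 of the 24 an unadjusted p under 0.05. Other settings of the edgeR fit gave STRA8 an unadjusted p of 0.0474 with the replicate number as a block, 0.0358 without Control 4 and Maltreated 3 and 0.00992 without Control 4. SYCP2 had an unadjusted edgeR p of 0.0394 with antisense counts added, where its log2 fold change was -1.57 against -0.29. With counts above the lower neighbouring exon only, STRA8 was below the count filter and was not tested. It kept 0, 5, 0 and 2 such counts across Control 1 to 4, against 5, 0 and 1 across Maltreated 1 to 3. Genes outside the 24 entered some settings. An unadjusted edgeR p under 0.05 was found for 1 of 33 genes with no filter and 1 of 25 without Maltreated 1, both outside the 24. Without Control 4 and Maltreated 3 it was found for 2 of 27, STRA8 and 1 outside the 24. No adjusted p of these genes passed 0.05 in any setting. Of the 24 genes, 8 had a positive and 16 a negative fold change, with a median log2 fold change of -0.35, against -0.02 over all tested genes. Without Control 4 and Maltreated 3, 12 of 27 tested genes were negative and the median was 0.11, and without Control 4 alone it was 0.01.

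MEIOB had the smallest p. It had 19.1, 21.2, 9.85 and 13.4 per kb in Control 1 to 4 and 20.7, 35.1 and 22.6 per kb in Maltreated 1 to 3, which overlap. Its log2 fold change was 0.69 ± 0.40 (SE), with an unadjusted p of 0.116 and an adjusted p of 0.999 in edgeR's quasi-likelihood test. It was 0.36 without Maltreated 2 and 0.31 with counts above the lower neighbouring exon. MSH4 was the only gene of the 24 whose groups did not overlap, where 3.65% of all tested genes did not. It had 4.40, 5.34, 4.86 and 0 per kb in Control 1 to 4 and 7.77, 7.48 and 8.36 per kb in Maltreated 1 to 3. The log2 fold change of MSH4 was 1.06 ± 1.10 (SE), with an edgeR adjusted p of 0.999. It was 0.64 without Control 4 and 0.38 with antisense counts added, of which Control 4 had 161. Control 4, the library without MSH4 counts, and Maltreated 3, with the highest MSH4 level, had the most leukocyte RNA, at 805 and 1008 CPM. The part of leukocyte RNA in the difference was not tested. HORMAD2, the most precisely measured, had a log2 fold change of 0.24 ± 0.28 (SE), a difference within the spread between libraries. It was 0.064 without Maltreated 2 and 0.12 without Control 2.

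STRA8 had a log2 fold change of -1.45 ± 1.10 (SE), SYCP3 -1.75 ± 1.32 and SPO11 -1.24 ± 1.76, and none differed beyond the spread between libraries. For STRA8 it was -0.73 without Control 3 and -1.87 without Control 4. The common biological coefficient of variation was 0.858 over the genes tested.

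**Figure D4:**
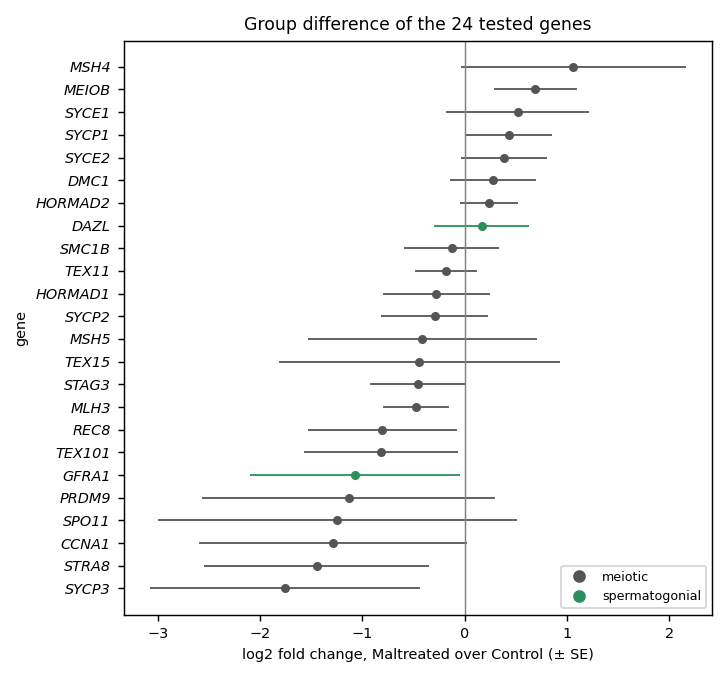
Log2 fold change of the 24 tested genes, Maltreated over Control, with bars of 1 standard error from edgeR's quasi-likelihood fit. Estimates run from -1.75 for SYCP3 to 1.06 for MSH4, and none passed the test.

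The covered share was compared with limma on the arcsine square root scale. Of 10526 genes tested, 8 passed an adjusted p of 0.05 (0.076%), none of them among the 24. With the total sense count as a covariate no gene passed. SYCE2 was the only one of the 24 genes with an unadjusted p under 0.05, against 5.11% of all tested genes, and with the total sense count as a covariate 0 of the 24 had one. It was covered at 96.9%, 46.9%, 31.2% and 23.9% in Control 1 to 4 and at 100% in each of Maltreated 1 to 3. The groups did not overlap for SYCE2, as for 3.63% of all tested genes, or 3.52% counting only those higher in the Maltreated group, and the adjusted p in limma was 0.828. The difference lay mostly in exon 1 and exons 4 to 6, where Maltreated 2 had 1 to 5 counts per exon. Control 3 and Control 4 had no count in any of these exons. Their cover of 31.2% and 23.9% lay on exons 2 and 3, so Control 4 also lacked cover within those exons.

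Other genes of the same pathways were summarised in the same way, with no test between lists. Of 45 other meiotic genes 39 were found, and 32 of them had a count in all 7 libraries, with a median level of 11.4 per kb and a median percentile of 82.8. The highest were MND1, a meiotic recombination factor, at 138 per kb, CCDC36, a break formation factor, at 132 and near-full in 5 libraries, HSF2BP, a BRCA2 partner, at 84.3, BOLL, a DAZL relative, at 69.9, and RNF212, a crossover factor, at 60.4 per kb. Of 20 other spermatogonial genes all were found, and 5 had a count in all 7 libraries, with a median level of 0.59 per kb and a median percentile of 36.3. Near-full cover in all 7 libraries was found for 1 of the 39 meiotic and 0 of the 20 spermatogonial genes, against 1.36% of all genes. In at least 4 libraries it was found for 4 and 1 of them, against 9.67% of all genes. In edgeR's quasi-likelihood test 0 of 35 tested meiotic genes and 0 of 9 tested spermatogonial genes passed, and none had an unadjusted p under 0.05. The meiotic genes had 17 positive and 18 negative fold changes, with a median log2 of -0.06, and the spermatogonial genes 6 positive and 3 negative, with a median of 0.45.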

How the data were processed

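Total RNA of sperm was sequenced in 7 libraries, 1 per animal. The submitters' processing notes name STAR, featureCounts and bedtools, and the versions, the read length and the genome build are not given in the sources used here. The deposited counts are whole numbers of reads per exon entry and strand, and the authors' gene count is their sum, so a read that overlaps several exon entries may add to each, which no source states. The authors' deposited covered fraction is covered bases over total bases of the exon entries, printed here as a percent. Genes listed on both strands (2) were left out. REC8, MEIOB, TEX11, MLH3 and TEX101 have repeated exon entries, used as deposited for levels and once in exon profiles. Coordinates are those of the files, counted from 1.

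All 33 genes are named, with other genes only by a rule of the highest mean level. The genes, lists and tests were chosen with earlier results of these data known. Gene names matched RefSeq for 33 and an identifier table for 31. No sequence was used.

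Group tests used edgeR 4.0.16 (quasi-likelihood, TMM scaling, filterByExpr with a minimum count of 10 and total of 15), limma 3.58.1 for covered fractions and DESeq2 1.42.0 as an alternative, in R 4.3.3, with Benjamini-Hochberg adjustment at 0.05 over all genes tested. The edgeR code was checked on simulated counts. P-values set the group difference against the spread between these libraries. With 1 library per animal, animal and library cannot be told apart in that spread.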

Additional observations from a re-analysis of the deposited data

Results flagged for a closer look

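In 15 of 66 checks of a gene's level or covered share over the 4 Control libraries, 1 library lay farther from its nearest neighbour than a Dixon test allows. Chance gives about 1 in 20 for values that are not mostly 0 or mostly 100%. For NANOS3 and UCHL1, 4 of the 15, the other 3 Control libraries were at 0, so any count had to stand apart. For the covered share of STRA8, STAG3 and DMC1, the other 3 Control libraries were at 100%, so any lower value had to stand apart. Control 4 gave 8 of the 15, among them NANOS3, with 2 counts, at 0.39 per kb and 100%. In Control 4, SYCP3 was high at 26.9 per kb from 142 counts and TEX15 was covered at 100% from 48 counts. STRA8 was covered there at 0.71%, STAG3 at 15.03%, DMC1 at 18.6% and MLH3 at 10.1%. In Control 1, DAZL was at 15.1 per kb, UCHL1 at 1.30 per kb with 11.002% covered, and HORMAD2 was covered at 100%. In Control 2, ID4 was at 0.58 per kb with 6.28% covered, from 14 counts. In Control 3, SPO11 was covered at 100% from 69 counts.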

How the results depend on the processing

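Precision is limited by 3 and 4 animals per group and by low counts at most spermatogonial genes. Over the other settings, 358 of 382 fold changes of the 24 tested genes kept their sign, 24 reversed in 12 genes, and none passed an adjusted p of 0.05. STRA8 with counts above the lower neighbouring exon and SPO11 without Control 1 were below the count filter and gave no fold change. The labels do not state that the replicate numbers pair the animals. Correlations between a Control and a Maltreated library were 0.07, 0.01 and -0.02 for equal numbers and -0.11 to 0.09 for unequal numbers. With so few libraries these values cannot show whether animals were paired. With the replicate number as a block edgeR called 0 genes, limma 0 (8 without it), and the log2 fold change became 0.43 for SYCP3, 0.21 for SMC1B, 0.025 for PRDM9, -0.039 for DMC1 and 0.95 for TEX15. Without Control 4 and Maltreated 3 it became 0.35 for SYCP3, 0.17 for HORMAD1, 0.48 for SMC1B, 0.28 for PRDM9 and 0.42 for TEX15, and with counts above the lower neighbouring exon 0.040 for TEX15. Leaving out each library in turn gave ranges of -0.039 to 0.44 for DAZL, -0.034 to 0.69 for SYCP1, -2.13 to 0.19 for SYCP3, -0.031 to 1.25 for SYCE1, -0.96 to 0.021 for HORMAD1, -0.52 to 0.27 for SMC1B, -1.71 to 0.33 for SPO11, -0.21 to 0.47 for DMC1, -0.30 to 0.016 for TEX11, -0.85 to 0.25 for TEX15 and -0.94 to 0.26 for MSH5. DESeq2 called 3 genes where edgeR called 0. Genes with a changed covered share, 8 at first, were 0 with the total count as a covariate, 20 on the untransformed scale, 43 with no filter, and 0 to 298 when 1 library was left out, with 298 without Maltreated 2. Near-full genes in all libraries were 0 to 1 when 1 library was left out (1 without Control 4) and 2 without Control 4 and Maltreated 3, an alternative chosen after seeing the data. Near-full genes in at least 4 libraries, 4 at first, were 2 to 4 when 1 library was left out with the limit unchanged. They were 0 with kept exons only, also chosen after seeing the data. The cause of these changes was not tested.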

Other observations

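SOHLH2, a transcription factor of differentiating spermatogonia, was singled out after its values were seen. It had the highest mean level among the 20 other spermatogonial genes, 24.5 ± 29.6 per kb (SD, n = 7), and was near-full in 5 libraries. Its level ran from 1.33 per kb in Maltreated 2 to 87.0 per kb in Control 4, the library that raised the mean most. The level did not rest on Control 4 alone. It was at least 25.2 per kb in Control 1 and Maltreated 1, 14.9 per kb in Maltreated 3 and 10.7 per kb in Control 2. In Control 3 it was 2.13 per kb. LIN28B, an RNA-binding repressor of let-7 maturation, was steadier, at 13.6 ± 6.19 per kb with 3.41 per kb in Control 4.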
